A study of Mus musculus with 22 samples.

Results

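The imprinted Dlk1-Dio3 locus of mouse chromosome 12 carries a long series of miRNA hairpins, and 31 mature miRNAs of this cluster were measured in laser-captured hypothalamus. The members were found by miRNA number, taking any arm or letter of 51 numbers that belong to the locus. Of these numbers 24 were found, and their 31 rows were the same in the table of the arcuate nucleus (ARC) and in that of the paraventricular nucleus (PVH), out of 172 listed miRNAs. They came from 24 hairpins, 7 of which had both the 5p and the 3p arm listed.

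Imprinted genes are expressed from the copy of 1 parent. At this locus Dlk1, Rtl1 and Dio3 are expressed from the paternal chromosome and encode proteins, whereas the non-coding transcripts Meg3, Rian and Mirg and the miRNAs that lie in and around them are expressed from the maternal chromosome. The miRNAs are enriched in brain and placenta and in the brain are found mainly in neurons, and several of them (miR-134, miR-485, miR-495) are known for acting on synapses and dendrites.

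All mice were wild-type C57BL/6J males of 8 weeks, fed chow and killed in the fed state. Off-Ob mice were born to obese dams and Off-C mice to lean control dams. Each nucleus had 5 Off-Ob and 6 Off-C libraries, 22 in all from 12 mice. All 6 Off-C mice and 4 Off-Ob mice gave both nuclei, while F6A gave an ARC and F14A a PVH library (both Off-Ob). The obese dams had eaten an obesogenic diet of high fat content with condensed milk, which was also in the cage until weaning. According to the methods of the study, a litter gave 1 male to each outcome, so the spread between libraries is a spread between mice of different litters. A captured nucleus holds neurons, glia and vessels, and fewer cells of a type cannot be told apart from less of a miRNA per cell.

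The hairpins of the 31 members lay on the plus strand of GRCm38 between chr12:109563692-109563785 (miR-770) and chr12:109743715-109743795 (miR-410), a span of 180 kb. Both arms of miR-770 lay within Meg3. The arms miR-433-3p, miR-127-5p, miR-127-3p, miR-434-3p, miR-136-5p and miR-136-3p lay antisense to Rtl1, whose transcript is their known target through full complementarity. miR-341-3p lay within Rian. Between Rian and Mirg lay 12 members: miR-379-3p, miR-411-3p, miR-380-3p, miR-323-5p, miR-323-3p, miR-1193-3p, miR-666-3p, miR-543-3p, miR-495-3p, miR-667-3p, miR-376b-5p and miR-487b-3p. Within Mirg lay 10: miR-382-5p, miR-134-5p, miR-485-3p, miR-485-5p, miR-541-5p, miR-409-3p, miR-409-5p, miR-369-5p, miR-369-3p and miR-410-3p.

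Mature sequences from RefSeq (GRCm38.p6) matched 29 of the 31 members. Those on which the results turn are shown with the seed, bases 2 to 8, in capitals. The seed is the stretch that pairs with target mRNAs, so that different seeds mean largely different targets. The set holds the 4 most abundant members, the members called between the nuclei other than miR-487b-3p, and the arm pairs of miR-136, miR-369, miR-409 and miR-770.
miR-495-3p: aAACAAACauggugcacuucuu
miR-323-3p: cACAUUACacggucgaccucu
miR-136-5p: aCUCCAUUuguuuugaugaugg
miR-136-3p: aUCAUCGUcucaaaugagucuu
miR-369-5p: aGAUCGACcguguuauauucgc
miR-369-3p: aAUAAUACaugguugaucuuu
miR-379-3p: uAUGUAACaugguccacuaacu
miR-411-3p: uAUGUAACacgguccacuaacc
miR-380-3p: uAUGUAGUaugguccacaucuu
miR-667-3p: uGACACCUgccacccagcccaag
miR-541-5p: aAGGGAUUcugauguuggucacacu
miR-434-3p: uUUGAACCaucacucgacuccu
miR-409-5p: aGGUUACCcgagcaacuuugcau
miR-409-3p: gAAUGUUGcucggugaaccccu
miR-410-3p: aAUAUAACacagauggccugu
miR-770-5p: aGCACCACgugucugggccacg
miR-770-3p: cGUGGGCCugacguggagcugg
Only miR-379-3p and miR-411-3p, neighbours in the locus, had the same seed among the 29 (AUGUAAC). The members were 21 to 25 nucleotides long, so that their read counts needed no length term. Their GC content ran from 23.8% in miR-369-3p to 72.7% in miR-770-3p and miR-323-5p.

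The cluster supplied 46710 of the 964620 reads of the 172 miRNAs, or 4.84%. Total reads were 22680 to 91790 per ARC library and 22495 to 61476 per PVH library. Libraries held 1267 to 3427 member reads, except the ARC library of F42A (Off-Ob), the shallowest of the ARC, in which they were 1.63% of 22680 reads. At this depth 30 of 31 members had fewer than 50 reads in at least 1 library.

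The ARC libraries of the Off-Ob mice F42A and F6A stood apart from the others, and the tested differences and mean shares of the ARC are given with and without them, which leaves 3 Off-Ob libraries. Reads of let-7, a family of abundant miRNAs outside the locus, came to 79.1% of the total for F42A and to 64.2% for F6A, where the range in the ARC of Off-C mice was 33.8 to 46.8%. F42A had no read of 20 miRNAs, 5 of them members (miR-770-5p, miR-434-3p, miR-323-5p, miR-1193-3p and miR-409-5p), where 0 of 22680 reads allows a share of up to 0.0132%. In all other libraries every member was detected. The summed share of 13 listed miRNAs of the neuron markers (10 of 11 names measured, miR-137 not among them) was 0.578% for F42A and 0.818% for F6A, where the ARC of Off-C mice ran from 2.32 to 3.29%. The astrocyte list was also below the Off-C range in both, at 0.146 and 0.29% against 0.517 to 0.87%. So were those for microglia (0.0661 and 0.18% against 0.255 to 0.417%) and vessels (0.507 and 0.828% against 0.855 to 2.62%). The neuroendocrine miRNAs miR-7a and miR-7b stood at 6.81 and 12.6% against 15.7 to 22.4%. All these shares are of a total that includes let-7, so they fall as the let-7 share rises. Whether any list was low among the reads outside let-7 was not tested. The oligodendrocyte list was below the range in F42A alone. Neuron markers were present in all groups, and no red blood cell or ependymal marker was among the listed miRNAs.

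The 4 most abundant members, miR-495-3p, miR-323-3p, miR-136-3p and miR-369-5p, made up 43.4% of the cluster reads. miR-495-3p alone made up 13.9% and miR-323-3p 13.7%, while the least abundant member, miR-1193-3p, had 84 reads over all libraries. Shares here are of the reads of all 172 miRNAs in a library, and capture preferences of the ligation steps, which can differ between sequences, were not corrected. miR-495-3p, which is known to act on Bdnf mRNA, averaged 0.473 ± 0.265% in Off-Ob and 0.543 ± 0.0751% in Off-C ARC (SD, n = 5 and 6), and 0.665 ± 0.0355% in Off-Ob ARC without F42A and F6A. In the PVH it averaged 0.902 ± 0.151% in Off-Ob and 0.759 ± 0.155% in Off-C mice. miR-323-3p averaged 0.553 ± 0.165% in Off-Ob (0.576 ± 0.149% without F42A and F6A) and 0.613 ± 0.153% in Off-C ARC, and 0.744 ± 0.0849% in Off-Ob and 0.739 ± 0.103% in Off-C PVH. These leading members did not separate the maternal groups in either nucleus. By position, the 12 members between Rian and Mirg held the largest part of the cluster reads, with 47.6 ± 3.40% in Off-Ob (48.7 ± 3.47% without F42A and F6A) and 48.1 ± 4.32% in Off-C ARC, and 48.7 ± 3.03% in Off-Ob and 47.9 ± 3.04% in Off-C PVH. The 6 members antisense to Rtl1 held 9.79 ± 3.48% in Off-Ob (12.3 ± 0.517% without F42A and F6A) and 11.7 ± 3.19% in Off-C ARC, and 13.6 ± 2.27% in Off-Ob and 13.3 ± 1.28% in Off-C PVH.

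**Figure D1:**
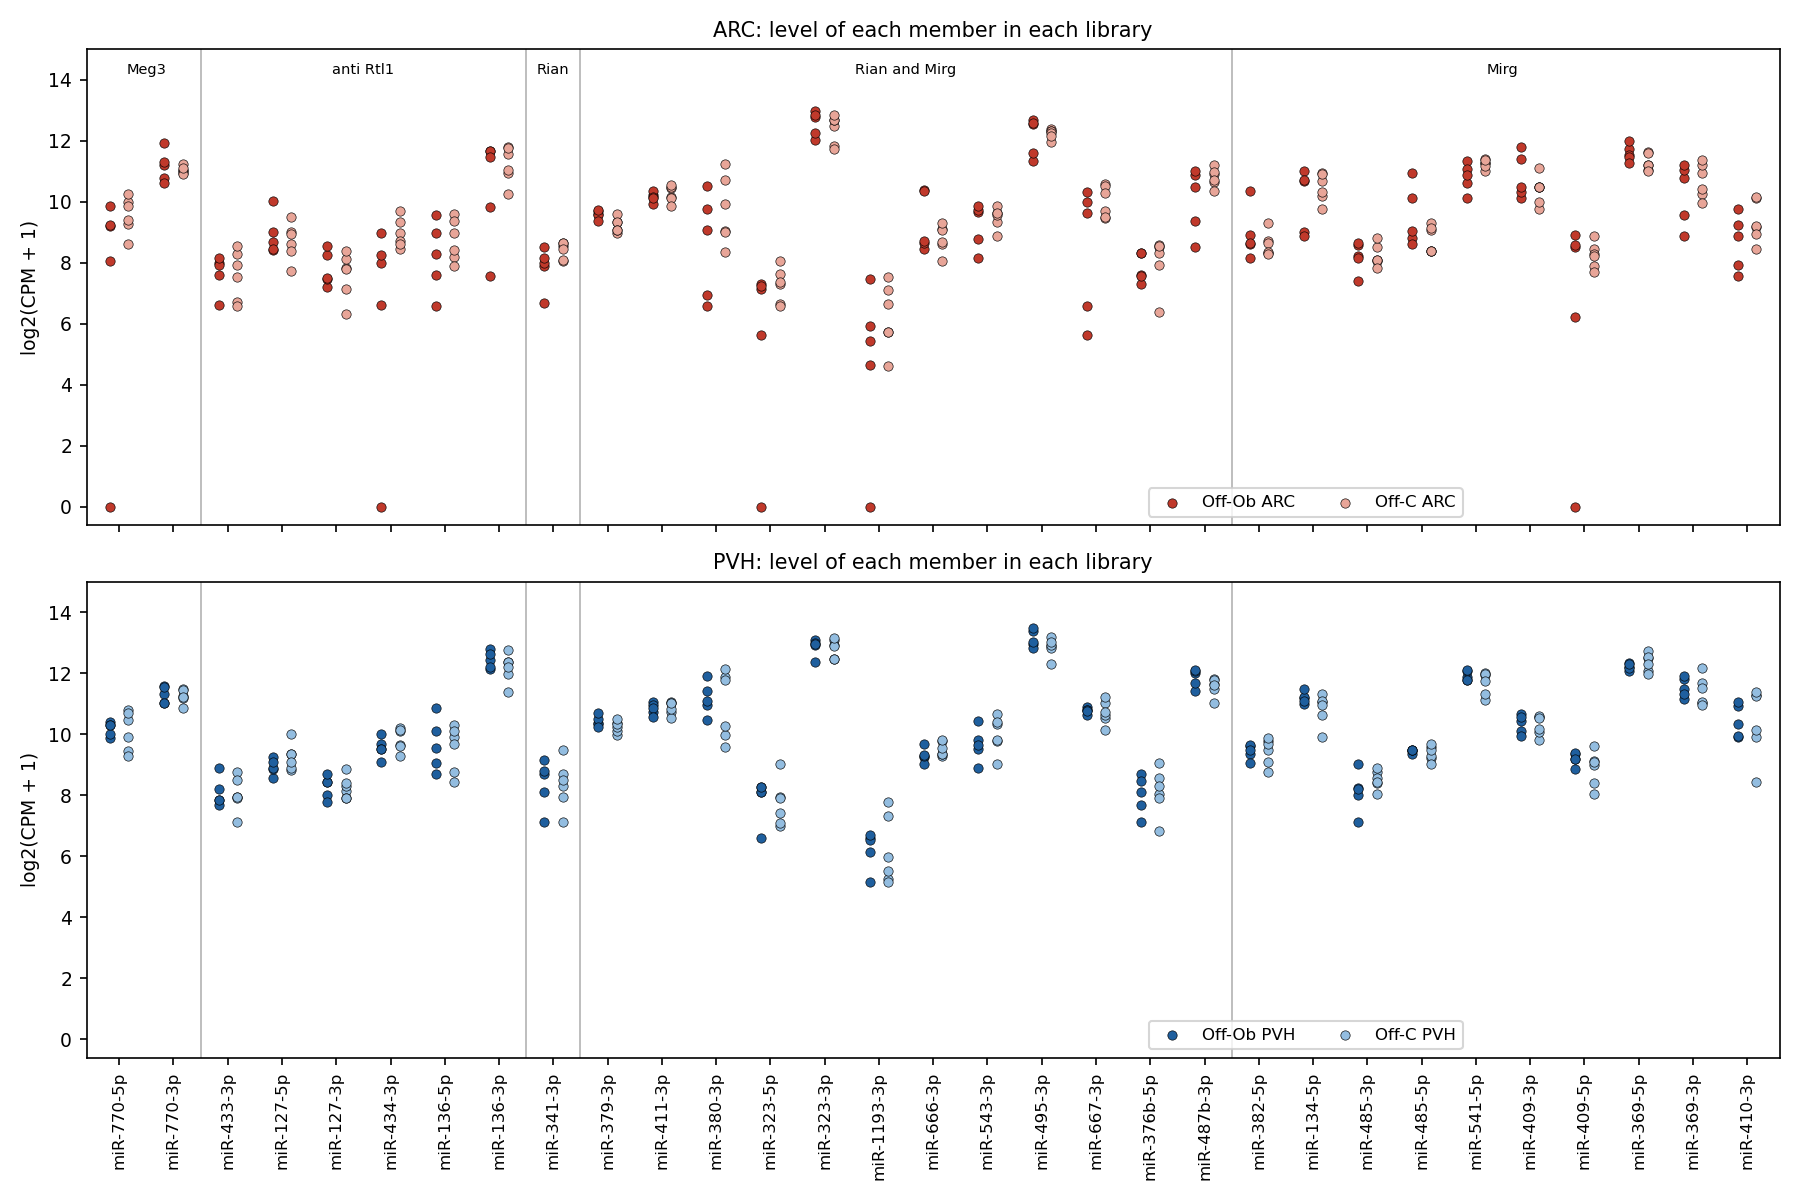
Level of each of the 31 members in every library as log2(CPM + 1), with the authors' scale factor, in the ARC (upper panel) and in the PVH (lower panel), with Off-Ob points left of Off-C points and members in locus order. Off-Ob and Off-C points overlap for every member, and the points at 0 are the 5 members without a read in the ARC library of F42A.

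The cluster as a whole took a smaller share of reads in the ARC than in the PVH. In Off-Ob mice it took 4.55, 4.35, 3.73, 2.68 and 1.63% in the ARC (F12A, F13A, F41A, F6A and F42A), against 5.32, 5.99, 6.83, 5.51 and 7.01% in the PVH (F12A, F13A, F14A, F41A and F42A). For F42A ARC the 95% Wilson interval was 1.47 to 1.80%, which covers counting error only. In Off-C mice it took 3.51 to 4.72% in the ARC (median 4.35%), against 4.58 to 7.06% in the PVH (median 5.86%). The ARC share was the lower one in all 4 Off-Ob and all 6 Off-C mice that gave both nuclei. The Off-Ob shares did not overlap between nuclei, and the Off-C shares did. With the let-7 family left out of the total, neither maternal group overlapped between nuclei: 6.26 to 7.77% in Off-Ob ARC against 8.63 to 10.4% in Off-Ob PVH, and 6.41 to 7.37% in Off-C ARC against 7.98 to 10.8% in Off-C PVH. These shares were not tested. All ARC libraries came from 1 sequencing pool and all PVH libraries from another, so nucleus and pool cannot be told apart in any comparison between nuclei. The lists for neurons, oligodendrocytes, astrocytes, microglia and vessels were also lower in the ARC by their medians, for example 2.89% against 4.92% for neurons in Off-C mice, whereas the neuroendocrine miRNAs miR-7a and miR-7b had medians of 20.2% in Off-Ob ARC against 15.7% in Off-Ob PVH, and of 20.6% in Off-C ARC against 13.8% in Off-C PVH. Apart from the neuron list these rested on few names. Measured were 2 of 4 names for oligodendrocytes, 2 of 3 for astrocytes, 2 of 6 for microglia, 2 of 5 for vessels and 2 of 8 for neuroendocrine cells. The part of these lists in the cluster share was not tested.

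**Figure D2:**
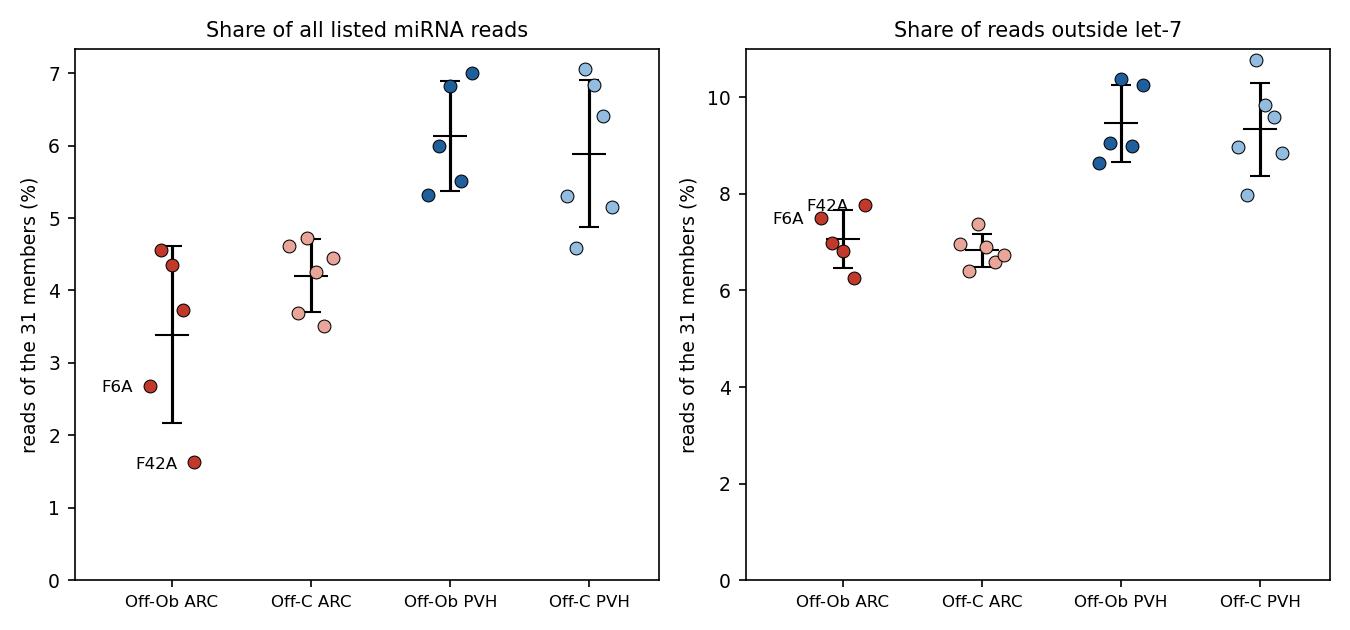
Share of reads from the 31 members in each library, as a percentage of all 172 miRNAs (left) and of the miRNAs outside let-7 (right), with bars for the mean and SD of the 5 Off-Ob or 6 Off-C libraries. F42A and F6A lie at 1.63 and 2.68% on the left, and at 7.77 and 7.51% on the right, where they are the highest of the Off-Ob ARC libraries.

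Between the maternal groups the cluster share did not separate. In the ARC it averaged 3.39 ± 1.23% in Off-Ob and 4.2 ± 0.50% in Off-C mice, and without let-7 in the total 7.07 ± 0.596% and 6.83 ± 0.334%. Without F42A and F6A the Off-Ob minus Off-C difference was 0.00905 percentage points. In the PVH it averaged 6.13 ± 0.761% in Off-Ob and 5.89 ± 1.01% in Off-C mice.

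Exposure to maternal obesity was tested member by member in the ARC on the authors' log2 values. None of the 31 members passed an adjusted p of 0.05 by limma with Benjamini-Hochberg adjustment, nor did any of the 172 miRNAs (0%). At an unadjusted p under 0.05 the counts were 0 of 31 members and 10 of 172 miRNAs (5.81%), and limma-voom gave 0 members by adjusted and 1 by unadjusted p. Of the members 11 were higher and 20 lower in Off-Ob mice, with a median log2 difference of -0.25, beside -0.16 over all 172. By position 3 of 6 members antisense to Rtl1, 9 of 12 between Rian and Mirg and 6 of 10 within Mirg were lower. Without F42A and F6A the members split into 15 higher and 16 lower, with medians of 0.00 for the members and for all 172, and at an unadjusted p under 0.05 miR-495-3p was higher (0.36) and miR-341-3p lower (-0.88), each with an adjusted p of 0.987 by limma. With plain CPM, which leaves out the authors' scale factor, 4 members were higher and 27 lower, with a median of -0.61 beside -0.52 over all 172.

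The members of smallest p in the ARC were miR-541-5p, miR-434-3p and miR-667-3p. miR-541-5p stood at a log2 level of 10.63, 11.34, 11.09, 10.89 and 10.14 in Off-Ob mice (F6A, F12A, F13A, F41A and F42A), against 11.02 to 11.40 in Off-C mice (median 11.27). Its log2 difference was -0.43 (SE 0.22, unadjusted p = 0.0713, adjusted p = 0.49 by limma), and -0.14 without F42A and F6A. The groups overlapped, with F12A and F13A inside the Off-C range. miR-434-3p stood at 6.62, 7.99, 8.24, 8.97 and 0 in the same order, against 8.47 to 9.71 in Off-C mice (median 8.84), and F42A had 0 reads of it. Its difference of -2.60 (SE 1.32, adjusted p = 0.49 by limma) was -0.56 without F42A and F6A, and -1.91 with a pseudocount of 10 CPM, since the 0 reads of F42A make its size depend on the pseudocount. miR-667-3p stood at 5.63, 9.63, 9.98, 10.31 and 6.57, against 9.47 to 10.57 in Off-C mice (median 9.99), from 2 reads in F6A and 1 read in F42A. The other 3 Off-Ob mice lay inside the Off-C range, and its difference of -1.59 (SE 0.80, adjusted p = 0.49 by limma) was -0.04 without F42A and F6A. Positive differences reached 0.73 in miR-485-5p, whose hairpin is known to act on the synaptic vesicle protein Sv2a, 0.50 in miR-666-3p and 0.45 in miR-409-3p, none past the threshold. Without F42A and F6A these were 0.05, -0.21 and -0.07. The study listed miR-485-5p, and no other member, as higher in Off-Ob ARC at p under 0.05 by a likelihood ratio test in edgeR. That test was not run here, and by limma the unadjusted p of miR-485-5p was 0.113.

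In the PVH the members differed little between Off-Ob and Off-C mice. None of 31 passed the adjusted threshold by limma, as for all 172 (0%). At an unadjusted p under 0.05, too, the counts were 0 of 31 and 0 of 172, and limma-voom also gave 0 members by either p. The differences ran from -0.40 in miR-485-3p to 0.37 in miR-134-5p, with 22 members higher and 9 lower and a median of 0.06, beside 0.05 over all 172. That split followed the scaling, with 16 higher and 15 lower by median ratios. miR-134-5p, which is known to limit dendritic spines through Limk1, stood at 11.20, 11.21, 11.49, 11 and 11.10 in Off-Ob mice (F12A, F13A, F14A, F41A and F42A), against 9.92 to 11.33 in Off-C mice (median 11.01). Its difference was 0.37 (SE 0.23, adjusted p = 0.98 by limma). F14A lay above the highest Off-C value, and the other Off-Ob values lay inside the Off-C range. miR-487b-3p stood at 11.99, 12.06, 12.10, 11.43 and 11.67 in Off-Ob mice, against 11.01 to 11.82 in Off-C mice (difference 0.29, SE 0.19, adjusted p = 0.98 by limma). miR-495-3p stood at 13.39, 12.95, 13.47, 12.84 and 13.01, against 12.30 to 13.18 in Off-C mice (difference 0.28, SE 0.18, adjusted p = 0.98 by limma). In both the groups overlapped.

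Whether the maternal difference itself differed between nuclei was tested as an interaction in 1 fit of both nuclei, with the mouse as a block. None of the 31 members passed the adjusted threshold by limma, as for all 172 (0%). At an unadjusted p under 0.05, 2 of 31 members and 5 of 172 miRNAs (2.91%) were counted. Both members, miR-541-5p and miR-487b-3p, had a lower Off-Ob minus Off-C difference in the ARC than in the PVH, by -0.67 (SE 0.30) and -1.07 (SE 0.49), each with an adjusted p of 0.67 by limma. Without F42A and F6A the values were -0.39 and -0.29, and no member was counted at an unadjusted p under 0.05.

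The 2 nuclei were then compared on plain CPM, with the same fit for both maternal groups. In Off-Ob mice 12 of 31 members (38.7%) were lower in the ARC at an adjusted p under 0.05 by limma, and 0 were higher, where 18.6% of all 172 were called lower and 2.33% higher. In Off-C mice 2 of 31 members (6.45%) were called lower and 0 higher, where 2.91% of all 172 were called lower and 1.16% higher. The median member differed by -1.02 in Off-Ob and by -0.45 in Off-C mice, beside -0.70 and -0.12 over all 172. In Off-C mice 27 of 31 members were lower in the ARC and 4 higher, with median-ratio scaling 25 and 6, and the 2 calls were made under both. In Off-Ob mice 30 were lower and 1 higher, with median-ratio scaling 23 and 8, and that scaling left 2 members called (miR-487b-3p and miR-541-5p). Of the 12 calls in Off-Ob mice 1 was left without the ARC libraries of F42A and F6A, where 10 of 172 were called. With these 2 left out, the medians in Off-Ob mice were -0.53 for the members and -0.27 for all 172. Leaving out F6A ARC alone gave 4 calls and leaving out F14A PVH alone 3. The spread was estimated jointly over all groups, so the Off-Ob ARC libraries also entered the tests in Off-C mice. Without those of F42A and F6A, 2 members and 18 of 172 miRNAs were called in Off-C mice, beside 2 members and 7 of 172 with them. At an unadjusted p under 0.05 by limma, 12 members were then lower in Off-C mice, beside 3 with them.

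miR-369-5p, the 5p arm of a hairpin within Mirg at chr12:109743418-109743496, was the member of smallest p in Off-C mice. In Off-Ob mice it took 0.299, 0.337, 0.299, 0.254 and 0.190% of the reads in the ARC (F6A, F12A, F13A, F41A and F42A), against 0.403, 0.434, 0.510, 0.451 and 0.565% in the PVH (F12A, F13A, F14A, F41A and F42A). In Off-C mice it took 0.213 to 0.380% in the ARC (median 0.263%), against 0.397 to 0.710% in the PVH (median 0.537%). Every ARC value lay below every PVH value within each maternal group, and the ARC library was the lower one in all 4 Off-Ob and all 6 Off-C mice. The log2 difference was -0.79 in Off-Ob mice (SE 0.24, adjusted p = 0.0237 by limma), -0.69 there without F42A and F6A (adjusted p = 0.11 by limma), and -0.92 in Off-C mice (SE 0.22, adjusted p = 0.0165 by limma). The other arm of the hairpin, miR-369-3p, which in human cells is known to act on the AU-rich element of TNF mRNA, differed by -1.46 in Off-Ob (SE 0.51, adjusted p = 0.0461 by limma, -0.43 without F42A and F6A) and by -0.55 in Off-C mice (SE 0.47, adjusted p = 0.70 by limma). Its groups overlapped in both.

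miR-379-3p, the most upstream member between Rian and Mirg (hairpin chr12:109709060-109709125), was the other call in Off-C mice. In Off-Ob mice it took 0.0678, 0.0943, 0.0812, 0.0675 and 0.0397% in the ARC in the order given for miR-369-5p, against 0.112, 0.133, 0.143, 0.120 and 0.186% in the PVH. In Off-C mice it took 0.0528 to 0.0868% in the ARC (median 0.0682%), against 0.0960 to 0.139% in the PVH (median 0.131%). Neither maternal group overlapped between nuclei, and all 10 mice with both libraries had the lower value in the ARC. The difference was -1.02 in Off-Ob (SE 0.25, adjusted p = 0.0123 by limma, and -0.79 with adjusted p = 0.0502 without F42A and F6A) and -0.86 in Off-C mice (SE 0.23, adjusted p = 0.0259 by limma). In Off-C mice this call was lost when any of 7 single libraries was left out (RC8A, RC12A and RC13A ARC, and RC9A, RC11A, RC12A and F42A PVH), with differences of -0.79 to -0.86. That of miR-369-5p was lost only without F42A PVH, where its difference was still -0.92 (adjusted p = 0.0606 by limma). Fitted on the Off-C libraries alone, both had an adjusted p of 0.0123 by limma. miR-411-3p, which shares its seed with miR-379-3p, stood at 0.0847, 0.136, 0.139, 0.118 and 0.0529% in Off-Ob ARC (F6A, F12A, F13A, F41A and F42A), against 0.170 to 0.198% in Off-Ob PVH. Its difference was -0.87 in Off-Ob (SE 0.26, adjusted p = 0.0237 by limma, -0.47 without F42A and F6A) and -0.43 in Off-C mice (SE 0.24, adjusted p = 0.46 by limma). miR-382-5p, the third in order of p in Off-C mice, ran from 0.0338 to 0.0764% in Off-C ARC (median 0.0409%), against 0.0489 to 0.0998% in Off-C PVH (median 0.0771%), with a difference of -0.69 (SE 0.28, adjusted p = 0.29 by limma).

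**Figure D3:**
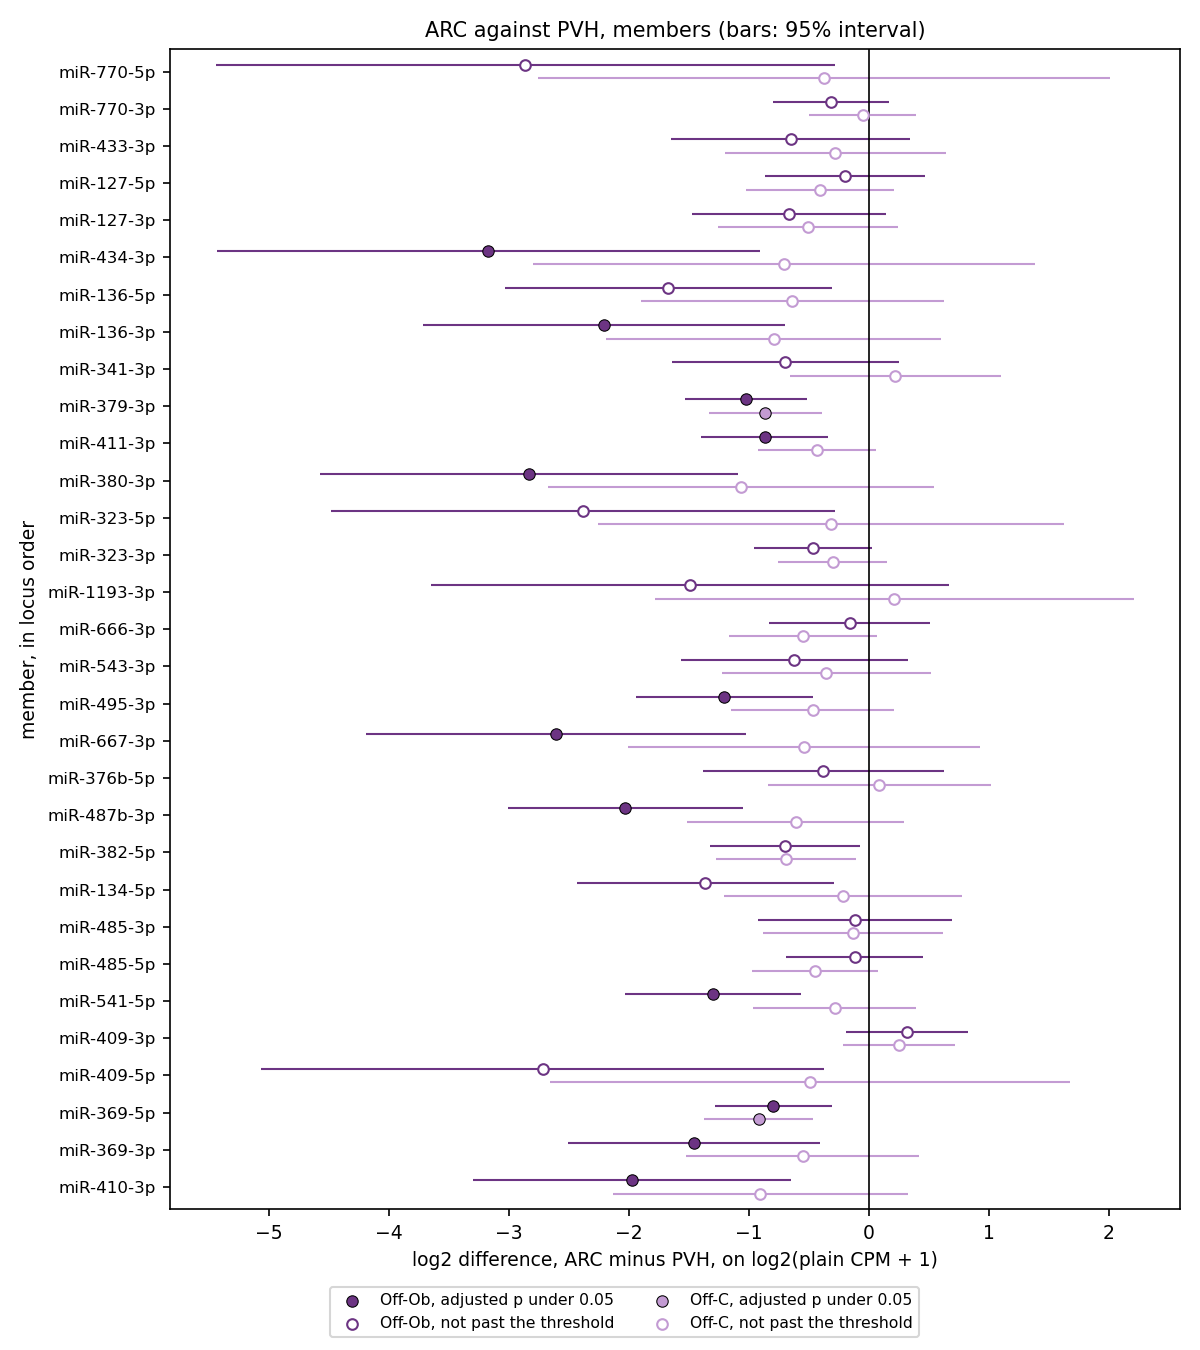
Log2 difference between ARC and PVH of each member on log2(plain CPM + 1), for Off-Ob (upper mark of each pair) and Off-C mice (lower mark), with 95% intervals from limma and filled marks for an adjusted p under 0.05. Nearly all marks lie left of 0, the 2 filled Off-C marks are miR-379-3p at -0.86 and miR-369-5p at -0.92, and the 12 filled Off-Ob marks run from -0.79 to -3.17.

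miR-487b-3p was the call in Off-Ob mice that remained without F42A and F6A, though not with median-ratio scaling as well. It took 0.0318, 0.216, 0.220, 0.146 and 0.0309% in Off-Ob ARC (F6A, F12A, F13A, F41A and F42A), against 0.348, 0.434, 0.433, 0.273 and 0.368% in Off-Ob PVH (F12A, F13A, F14A, F41A and F42A). In Off-C mice it took 0.133 to 0.262% in the ARC (median 0.203%), against 0.203 to 0.378% in the PVH (median 0.319%). The Off-Ob values did not overlap between nuclei, and the Off-C values did. Its difference in Off-Ob mice was -2.03 (SE 0.47, adjusted p = 0.01 by limma), and -0.95 without F42A and F6A (adjusted p = 0.0369 by limma).

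The remaining calls in Off-Ob mice were miR-541-5p, miR-667-3p, miR-495-3p, miR-380-3p, miR-410-3p, miR-136-3p and miR-434-3p. miR-541-5p took 0.138, 0.296, 0.231, 0.194 and 0.0529% in Off-Ob ARC (F6A, F12A, F13A, F41A and F42A), against 0.299 to 0.50% in Off-Ob PVH (difference -1.29, SE 0.35, adjusted p = 0.0219 by limma, -0.72 without F42A and F6A). miR-667-3p took 0.00424, 0.0907, 0.107, 0.130 and 0.00441%, against 0.161 to 0.198% in Off-Ob PVH (difference -2.60, SE 0.76, -0.70 without them). miR-495-3p took 0.227, 0.680, 0.690, 0.624 and 0.146%, against 0.726 to 1.12% (difference -1.20, SE 0.35, -0.44 without them). In these 3 members the 2 lowest ARC values were those of F42A and F6A, and no ARC value reached the lowest PVH value. miR-136-3p, antisense to Rtl1, took 0.0784, 0.376, 0.346, 0.290 and 0.00882% in Off-Ob ARC, against 0.386 to 0.717% in Off-Ob PVH (difference -2.20, SE 0.73, -0.75 without F42A and F6A). miR-434-3p, also antisense to Rtl1, took 0.00847, 0.0290, 0.0320, 0.0512 and 0%, against 0.0560 to 0.116% (difference -3.17, SE 1.09, -1.08 without F42A and F6A, and -3.80 to -1.67 with 1 library left out). Both were lower in the ARC than in any PVH library of the group, and miR-434-3p was lower in the ARC of all 6 Off-C mice too, where its difference was -0.71 (SE 1.01, adjusted p = 0.90 by limma). That SE came from the spread over all groups and not from Off-C mice alone. The SD of miR-434-3p on log2(plain CPM + 1) was 3.70 in Off-Ob ARC, 0.49 in Off-C ARC and 0.41 in Off-C PVH. miR-380-3p took 0.0106, 0.167, 0.0918, 0.0556 and 0.00441% in Off-Ob ARC, against 0.122 to 0.438% in Off-Ob PVH, so that the groups overlapped through F12A (difference -2.83, SE 0.84, -1.32 without F42A and F6A). miR-410-3p, the last hairpin of the series, took 0.0212, 0.0998, 0.0641, 0.0479 and 0.00882%, against 0.0830 to 0.240% (difference -1.97, SE 0.64, -1.08 without F42A and F6A).

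In all, 9 of 31 members (29%) had no overlap between ARC and PVH in Off-Ob mice, each lower in the ARC, where 13.4% of all 172 were lower without overlap. In Off-C mice there were 2 (6.45%), miR-379-3p and miR-369-5p, beside 5.81% of all 172. Members that did not follow were miR-409-3p, at 0.32 in Off-Ob and 0.25 in Off-C mice, and in Off-C mice miR-341-3p (0.22), miR-1193-3p (0.21) and miR-376b-5p (0.09), none past the threshold. Of the other imprinted miRNAs on the list, 7 were measured, and 0 were called in either maternal group, with a median difference of -0.66 in Off-Ob and 0.18 in Off-C mice.

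Within the cluster, the members did not keep a fixed ratio to each other from library to library. For each library the share of every member among the cluster reads was set against its Off-C mean in that nucleus on a log2 scale, and the library's median was subtracted, so that neither let-7 nor the scale factor entered. The SD of these deviations over the 31 members was 1.69 in F42A ARC and 1.22 in F6A ARC, against 0.30 to 0.62 in the other 20 libraries. The deviations of F42A and F6A had a Spearman rho of 0.88 over 31 members, against -0.68 to 0.80 in the other 54 pairs of ARC libraries, and 26 members deviated to the same side in both. These members share a library and partly a transcript, and the rho is a description. Off-C libraries helped to set the Off-C mean from which deviations were taken, and Off-Ob libraries did not. Pairs that include an Off-C library are therefore not a like-for-like standard for F42A with F6A. The PVH library of F42A had an SD of 0.57.

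In both libraries miR-434-3p, miR-380-3p, miR-667-3p and miR-409-5p deviated by more than 1 log2 unit downwards. miR-127-5p, miR-379-3p, miR-323-3p, miR-666-3p, miR-485-5p, miR-409-3p and miR-369-5p deviated by more than 1 upwards. miR-667-3p had 2 reads in F6A and 1 in F42A, against 35 to 85 in Off-C ARC libraries, while miR-485-5p had 46 reads in F6A and 21 in F42A, against 16 to 24. miR-136-3p deviated by -0.63 in F6A and by -2.74 in F42A, and miR-770-5p by -0.70 and -3.43. Members that went up and members that went down thus lay side by side in the locus. Of the hairpins with both arms listed, miR-409, miR-770, miR-323 and miR-369 had an arm on each side in both libraries. Over the 29 members with a sequence, the Spearman rho between deviation and GC content was 0.26 for F42A and 0.15 for F6A, inside the range of the other libraries (-0.45 to 0.37).

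**Figure D4:**
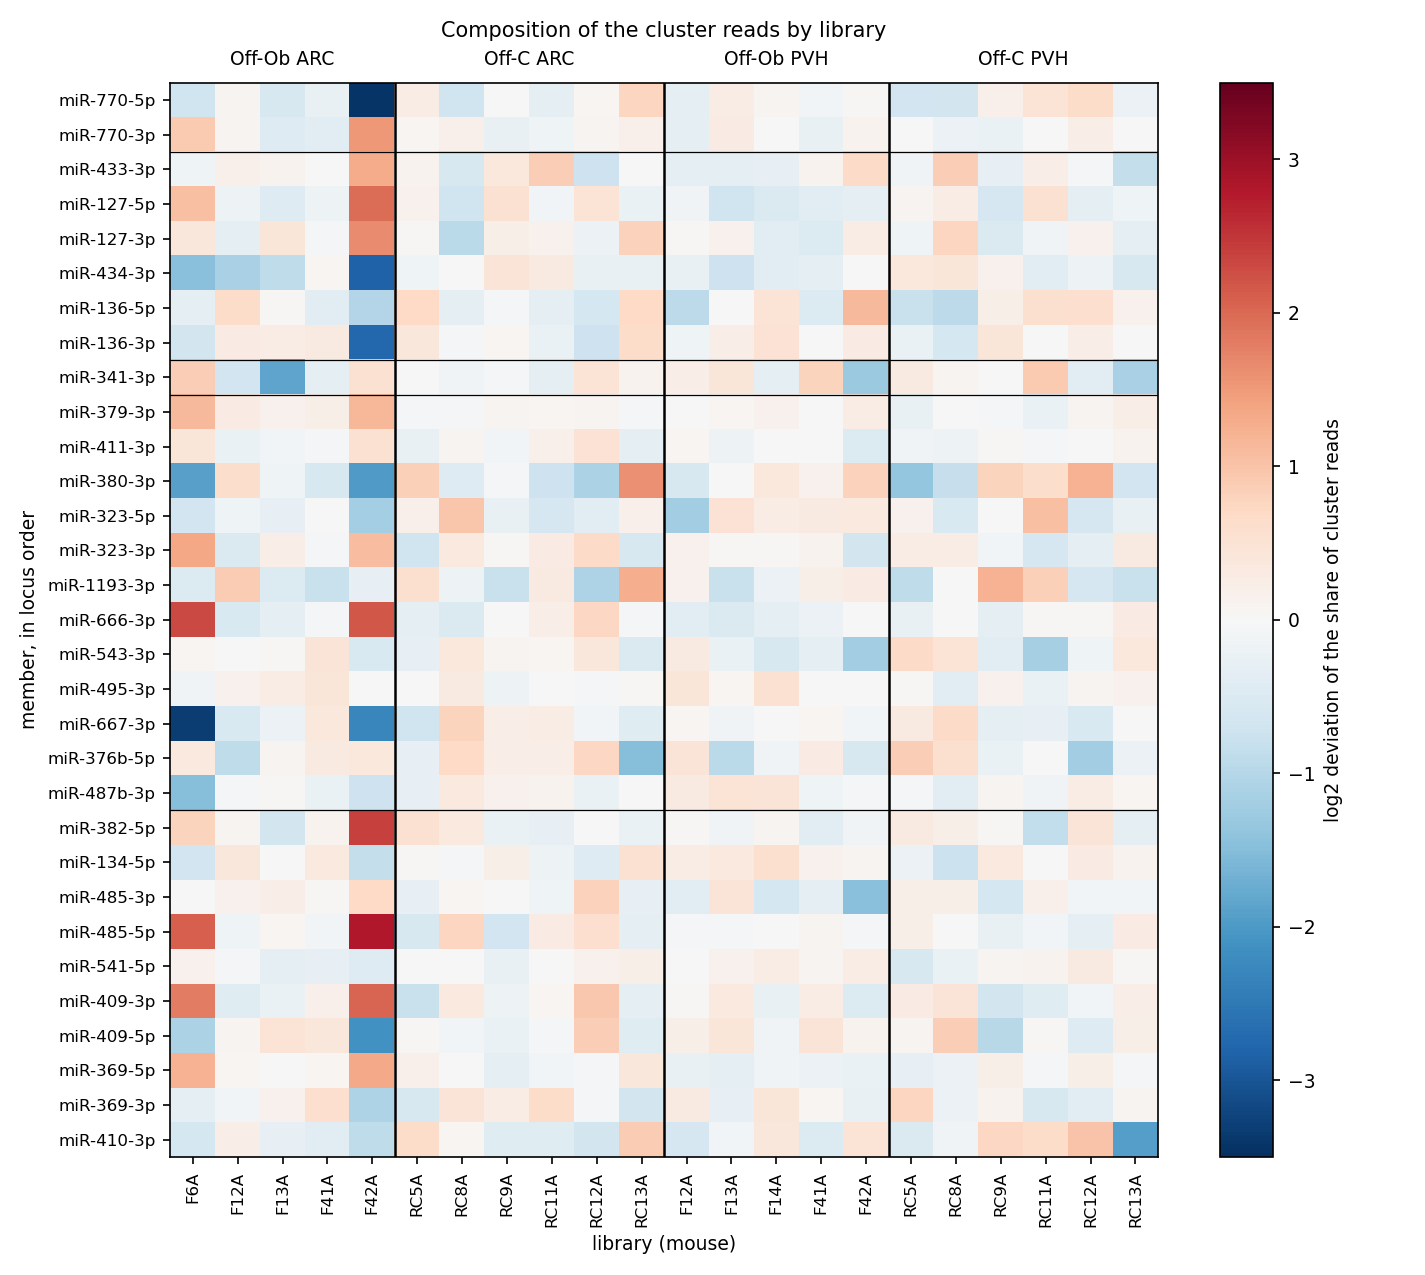
Log2 deviation of each member's share of the cluster reads from its Off-C mean in the same nucleus, centred on the median of each library, for 22 libraries in columns and 31 members in locus order. The columns of F6A and F42A in Off-Ob ARC carry the strongest colours and resemble each other. The rows of miR-380-3p, miR-136-5p and miR-410-3p, among others, vary among Off-C libraries of both nuclei.

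Some members also varied among the other libraries, Off-C mice included. Of these miR-380-3p, miR-410-3p and miR-136-5p were chosen after their values were seen, and miR-380-3p was also among the members low in F42A and F6A. They were not the only ones to vary. The SD of the deviations in Off-C ARC and Off-C PVH was 0.557 and 0.659 for miR-136-5p. It was 0.824 and 0.725 for miR-376b-5p, and 0.873 and 0.888 for miR-1193-3p, the least abundant member. miR-380-3p, which lies between Rian and Mirg, took 0.0338 to 0.295% of the reads in Off-C ARC (median 0.0829%) and 0.0729 to 0.475% in Off-C PVH (median 0.251%). In the ARC its highest Off-C values were those of RC13A and RC5A, and in the PVH those of RC12A, RC9A and RC11A, with RC5A lowest, so that the order of the mice was not the same in the 2 nuclei. miR-410-3p took 0.0362 to 0.137% in Off-C ARC and 0.0306 to 0.285% in Off-C PVH, and miR-136-5p 0.0241 to 0.0946% and 0.0338 to 0.142%. Pearson's r between the deviations of miR-380-3p and miR-410-3p was 0.93 over the 6 Off-C ARC libraries, 0.85 over the 5 Off-Ob PVH and 0.75 over the 6 Off-C PVH libraries. Off-Ob ARC, which holds F42A and F6A, was left out of these values. Between miR-380-3p and miR-136-5p r was 0.97, 0.93 and 0.85 in the same groups. Between miR-410-3p and miR-136-5p it was 0.91 and 0.96 in the first pair of groups, but 0.37 in Off-C PVH. Between miR-380-3p and miR-409-3p it ran the other way, at -0.79, -0.66 and -0.79. These values describe few libraries each and share the cluster total as denominator. miR-380-3p and miR-136-5p lie in different parts of the locus and have different seeds, as the sequences above show.

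The ratio of the 3p to the 5p arm within a library carries no scale factor, and it was tested for the 7 hairpins with both arms listed. The 3p arm was the more abundant in miR-323, miR-136, miR-409 and miR-770, and the 5p arm in miR-127, miR-485 and miR-369, in the mean of every group. Off-Ob and Off-C mice did not differ past the threshold in any of the 14 tests (exact permutation test, two-sided, 462 arrangements, smallest p of 0.00433 possible), with adjusted p from 0.545 to 0.931. The smallest p was 0.16, for miR-770 in the ARC, where log2(3p over 5p) averaged 2.78 ± 2.15 in Off-Ob and 1.45 ± 0.508 in Off-C mice (SD, n = 5 and 6, exact permutation test). F42A had 42 reads of miR-770-3p and 0 of miR-770-5p, and F6A 97 and 11, while the other 3 Off-Ob libraries had ratios of 1.35 to 1.57 within the Off-C range of 0.867 to 2.34. Without F42A and F6A the group difference for miR-770 was 0.00622 (exact permutation p = 0.881, smallest possible 0.0238), and no hairpin passed the threshold.

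miR-409 had the same pattern in the ARC. F42A had 38 reads of miR-409-3p and 0 of miR-409-5p, and F6A had 112 and 3, whereas Off-C libraries had 49 to 93 and 9 to 23. The log2 ratio averaged 3.23 ± 2.25 in Off-Ob and 2.11 ± 0.424 in Off-C mice (exact permutation p = 0.346, adjusted p = 0.545). Without F42A and F6A the Off-Ob mean was 1.62 ± 0.245 (n = 3), a difference of -0.49 in the other direction (exact permutation p = 0.119, adjusted p = 0.815). For miR-369 F42A had 5 reads of the 3p and 43 of the 5p arm, and the log2 ratios were -2.98 in F42A and -2.17 in F6A, below the Off-C range of -1.63 to 0.156. For miR-485 the ratios of these 2 libraries were -2.62 and -2.63, below -1.22 to 0.141 in Off-C mice. For miR-323 they were 7.29 and 7.03, above 4.17 to 6.1 in Off-C mice, from 0 and 2 reads of the 5p arm. For miR-136 the ratio of F42A was 0.737, below 2.15 to 2.71 in Off-C mice, from 2 reads of the 3p and 1 of the 5p arm. In the PVH, where F42A was also measured, group means differed by 0.455 or less in size in each of the 7 hairpins. The PVH ratio of F42A was below the Off-C PVH range for miR-485 (-2.26 against -1.22 to -0.566), miR-136 (1.77 against 2.04 to 3.18) and miR-409 (0.753 against 0.923 to 1.73). It was above that range for miR-127 (-0.401 against -1.64 to -0.472), and inside it for miR-770, miR-323 and miR-369.

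**Figure D5:**
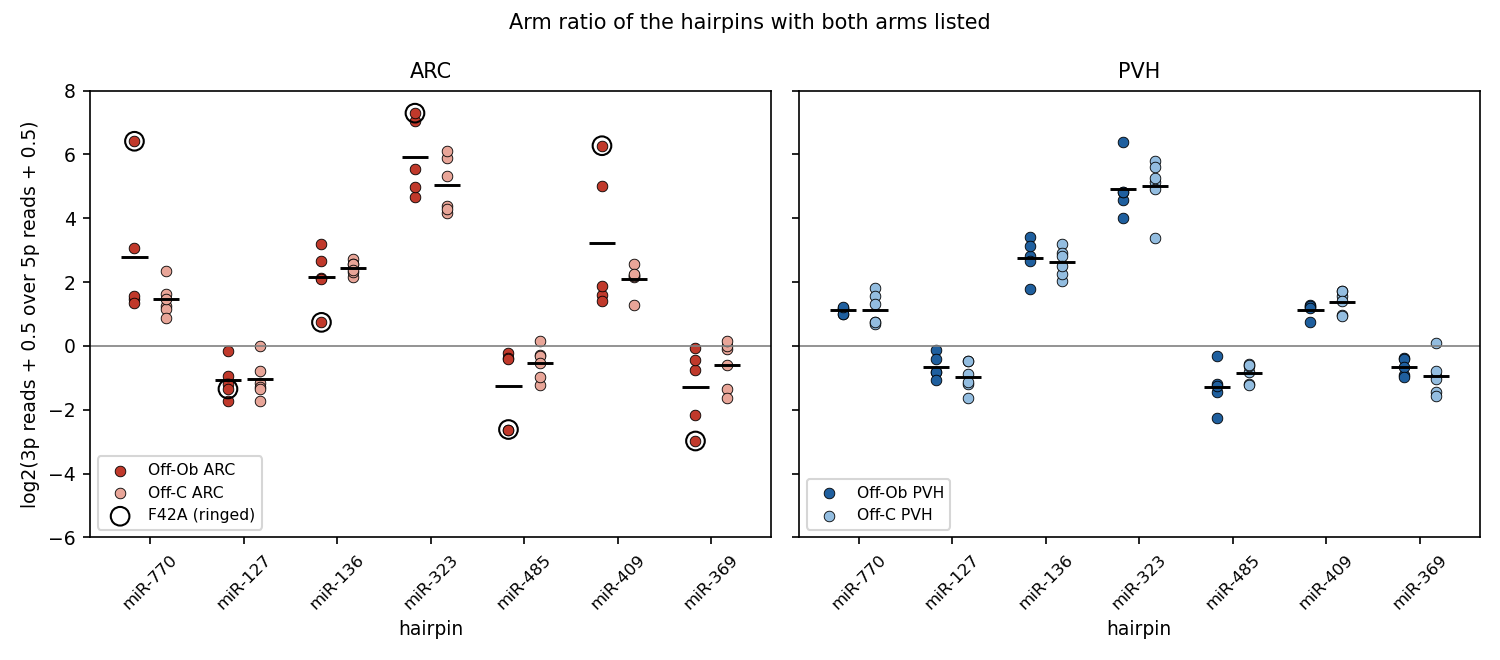
Log2 ratio of 3p to 5p reads, with 0.5 reads added to each arm, of the 7 hairpins with both arms listed, by library in the ARC (left) and the PVH (right), with Off-Ob left of Off-C and lines at the group means. The ringed points of F42A lie outside the Off-C range in the ARC for miR-770 (6.41), miR-409 (6.27), miR-323 (7.29), miR-136 (0.737), miR-369 (-2.98) and miR-485 (-2.62). The PVH groups overlap in every hairpin.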

How the data were processed

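Small RNA of laser-captured ARC and PVH tissue was sequenced from TruSeq libraries. The submitters' processing notes name Bowtie 1.2.3, edgeR 3.36.0 and GRCm38. The authors deposited log2 values of 172 miRNAs, log2(CPM + 1), with CPM relative to the library total times a scale factor, separately for each nucleus. Multi-mapping rules and miRNA annotation version are not given in the sources used here.

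Whole reads were recovered from the deposited log2 values, totals and factors (3784 of 3784 values within 0.01 of a whole read). Reads were amplified and carry no molecular identifiers, so an interval or limit of a library speaks for counting error alone. Columns carry the group, and mice came from the identifier sheet, so libraries are named by mouse. For the maternal comparison of each nucleus, limma 3.58.1 (R 4.3.3, eBayes with trend) was run on the authors' log2 values, with Benjamini-Hochberg adjustment over 172 miRNAs. All passed the filter, a CPM of 1 or more in 5 libraries. ARC and PVH were compared over all 22 libraries on log2(plain CPM + 1) of the recovered reads, because the tables had been scaled separately, with the mouse as a block because both nuclei of a mouse come from the same animal. The consensus correlation within mice was -0.133, and -0.0881 for the interaction, which used the authors' log2 values. Arm ratios used exact permutation tests with 0.5 reads added. A difference on the log2(CPM + 1) scale understates the change of a member near 1 CPM, but 1 read stood for 10.6 to 93.8 CPM, so that a library with 0 reads enlarges it. Both tests were tested on simulated data.

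The members, lists and tests were chosen with earlier results of these data known. Members named with values in each library were the 4 of highest mean CPM, the 3 of smallest p per maternal comparison and in Off-C between nuclei, those past an adjusted p of 0.05, and those whose groups do not overlap. Alternatives were pseudocounts of 0.5 and 10, filters, median-ratio and trimmed-mean scaling, totals without let-7, plain CPM, limma-voom, library weights, no trend, no mouse block and each library left out. The trimmed-mean factors equalled the authors' to within 0.0001. Some were added after seeing the data: a fit on Off-C libraries alone, median-ratio scaling without F42A and F6A, and leaving out libraries of the other maternal group. Hairpin positions came from GENCODE mouse release M21 on GRCm38. Python 3.11.15, NumPy, SciPy and matplotlib were used for the rest.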

Additional observations from a re-analysis of the deposited data

Results flagged for a closer look

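In 92 groups of 5 or 6 libraries (the cluster share, the named members and the arm ratios in each group) the lowest or highest library was compared with its neighbours by Dixon's ratio, which marks about 1 group in 20 by chance. A lone library stood out in 5 of them. miR-434-3p in Off-Ob ARC was at a log2 level of 0 in F42A, against 6.62 in the next lowest library, F6A. miR-323-3p in Off-Ob PVH was at 12.4 in F42A, against 12.9 in the next. The log2 ratio of miR-409-3p to miR-409-5p in Off-Ob PVH was 0.753 in F42A, against 1.18 in the next, and in Off-C ARC 1.29 in RC5A, against 2.16. That of miR-323-3p to miR-323-5p in Off-C PVH was 3.39 in RC11A, against 4.92. F42A accounts for 3 of the 5. The ARC ratios of miR-770 and miR-409 in F42A were not among them, since F6A lay on the same side.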

How the results depend on the processing

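The maternal comparisons gave 0 called members under every alternative in both nuclei, as did the interaction and the arm ratios, also with each library left out (0 to 0). ARC against PVH in Off-Ob mice depended on scaling and on single libraries: 12 members were called with plain CPM, 2 with median-ratio scaling, 2 with trimmed-mean scaling, 6 with totals without let-7, 1 without the ARC libraries of F42A and F6A, and 0 with both median-ratio scaling and these 2 left out. Other settings gave more calls, with 14 on the authors' log2 values, 14 with limma-voom and 13 with a pseudocount of 10. With each library left out in turn the count ran from 3 to 18, with 3 without F14A PVH and 4 without F6A ARC. In Off-C mice it ran from 0 to 2, with 0 without F42A PVH, which is no library of that comparison but enters the common spread, and 2 under all scalings except 3 on the authors' values. The difference of the cluster share in the ARC, -0.814 percentage points, was 0.238 with totals without let-7, and -1.11 to -0.373 with each library left out. In the PVH the range was -0.0196 to 0.476 around 0.242.

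The maternal groups are different mice of different litters and were not paired. Both nuclei of a mouse were linked through the mouse as a block. Its consensus correlation was negative (-0.133), so the block did not narrow the error of ARC against PVH. Without the replicate block (mouse) the counts were 12 in Off-Ob and 2 in Off-C mice and 0 for the interaction, so it changed no count of called members. Over all miRNAs, 42 were called in Off-Ob mice without the block and 36 with it, and 7 in Off-C mice either way. Depth limits the low members: in F42A ARC 1 read stood for 93.8 CPM.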
